A study of Homo sapiens with 5 samples.

Results

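The genes described here encode the heat shock transcription factors HSF1, HSF2 and HSF4 and HSBP1, the heat shock factor binding protein. They were followed in LNCaP, a human prostate cancer line that responds to androgen, given celastrol at 1.25 µM for 6 h, against the same line given the solvent DMSO for 6 h. Celastrol is a triterpenoid from thunder god vine. All cells were grown in RPMI with fetal bovine serum, lysed in Trizol, and their RNA was measured on Affymetrix arrays. There were 2 celastrol and 3 DMSO arrays, called biological replicates in the titles, and the description field of the DMSO samples speaks of celastrol, so titles and treatment protocols set the groups. Members were all probe sets that the platform annotation assigns to 1 of the 4 listed genes. This gave 5 of 22215 probe sets, 2 for HSF1, 1 for HSF4 and 2 for HSBP1. No probe set named HSF2 in the annotation used, and its expression is not analysed here.

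Heat shock factors bind DNA at heat shock elements, which are inverted repeats of a short GAA unit, and switch on genes for chaperones. HSF1 is the main factor of the acute response in mammals. It is held inactive by chaperones, and on stress it forms trimers, enters the nucleus and is phosphorylated, steps that act on protein already made. HSF4 is known above all from the lens of the eye. HSBP1 is a small coiled-coil protein that binds the trimerization region of HSF1 and dampens its activity. Celastrol is known from other work as an activator of HSF1.

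The array labelled DMSO replicate 3 stood apart from the other 4 and is shown separately throughout. Over probe sets its Pearson r was 0.843 to 0.844 with them, against 0.994 to 0.998 between any pair of those 4. All 11 measured markers of luminal prostate epithelium, of 14 listed, lay at least 2-fold below the mean of DMSO replicates 1 and 2 there, beside 10.1% of all probe sets. The summed log2 level of these markers was 51.9 on DMSO replicate 3, against 106 to 107 on the celastrol arrays and 108 to 109 on DMSO replicates 1 and 2. Leukocyte markers were measured for 12 of 14 genes, and 7 of them lay at least 2-fold above that mean, beside 7.52% of all probe sets, with a summed log2 level of 94.2 against 57.0 to 57.2 on the other 4 arrays. No marker was listed at 0. The LNCaP label thus matched its luminal markers on 4 arrays and not on the fifth. The comparison below is celastrol replicates 1 and 2 against DMSO replicates 1 and 2, so each value rests on n = 2 a group, and the number of arrays limits its precision. A level below is log2(intensity + 1), and a change is the celastrol mean minus the DMSO mean of such levels, which is too small for dim genes.

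HSF1 transcript did not differ detectably between celastrol and DMSO, although its probe sets were not alike in how closely they pinned this down. Probe set 202344_at had intensities of 102 and 102 with celastrol, against 104 and 98.7 with DMSO. On the log2 scale the levels were 6.69 and 6.69 with celastrol, against 6.71 and 6.64 with DMSO, so the celastrol arrays lay between the DMSO arrays. The means were 6.69 ± 0 (SD, n = 2) with celastrol and 6.68 ± 0.0534 (SD, n = 2) with DMSO. The difference was 0.0119 (SE 0.0360, limma adjusted p = 0.884), and the 95% interval of the fold ran from 0.931 to 1.09. The spread of 0 reflects celastrol values that were identical on both arrays, as they were for 19.3% of all probe sets.

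The other HSF1 probe set, 213756_s_at, was dimmer and more scattered. It had levels of 5.48 and 5.56 with celastrol, against 5.61 and 5.91 with DMSO. Both celastrol arrays were below both DMSO arrays, but the gap between the DMSO arrays was wider than that between the groups' nearest arrays. Its means were 5.52 ± 0.0502 (SD, n = 2) with celastrol and 5.76 ± 0.216 (SD, n = 2) with DMSO, a difference of -0.24 (SE 0.130, limma adjusted p = 0.622). The 95% interval of the fold ran from 0.634 to 1.13. Without DMSO replicate 2 the difference was -0.0876, and without DMSO replicate 1 it was -0.39, so a single DMSO array set most of its size. The differences of the HSF1 probe sets were 0.25 apart, which was not tested.

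HSF4 was measured just below the median probe set of the arrays and was flat. Its single probe set, 210977_s_at, had levels of 4.85 and 4.83 with celastrol, against 4.83 and 4.83 with DMSO. The value was identical on celastrol replicate 2 and both DMSO arrays, and celastrol replicate 1 was slightly above them. The median probe set lay between 4.90 and 4.93 over the 5 arrays. The difference was 0.00833 (SE 0.0195, limma adjusted p = 0.838), with a 95% interval of the fold from 0.963 to 1.05. The table holds no detection call, so these values do not show whether HSF4 transcript was present, and a change in a transcript at or near background would be compressed.

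HSBP1 was measured by both of its probe sets well above the median of the arrays, and neither differed detectably with celastrol. Probe set 200942_s_at had intensities of 1315 and 1371 with celastrol, against 1290 and 1290 with DMSO. Its levels were 10.36 and 10.42 with celastrol, against 10.33 and 10.33 with DMSO. Both celastrol arrays were above both DMSO arrays, by a small margin. The means were 10.39 ± 0.0423 (SD, n = 2) and 10.33 ± 0 (SD, n = 2), a difference of 0.0575 (SE 0.0306, limma adjusted p = 0.622). The interval of the fold ran from 0.972 to 1.11.

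The other HSBP1 probe set, 200941_at, had levels of 9.37 and 9.28 with celastrol, against 9.28 and 9.35 with DMSO. The groups overlapped, and celastrol replicate 2 had the same value as DMSO replicate 1. The difference was 0.00867 (SE 0.0514, limma adjusted p = 0.956), with an interval of the fold from 0.897 to 1.13. The upper ends of both intervals for HSBP1 thus lay at 1.13 or less.

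**Figure D1:**
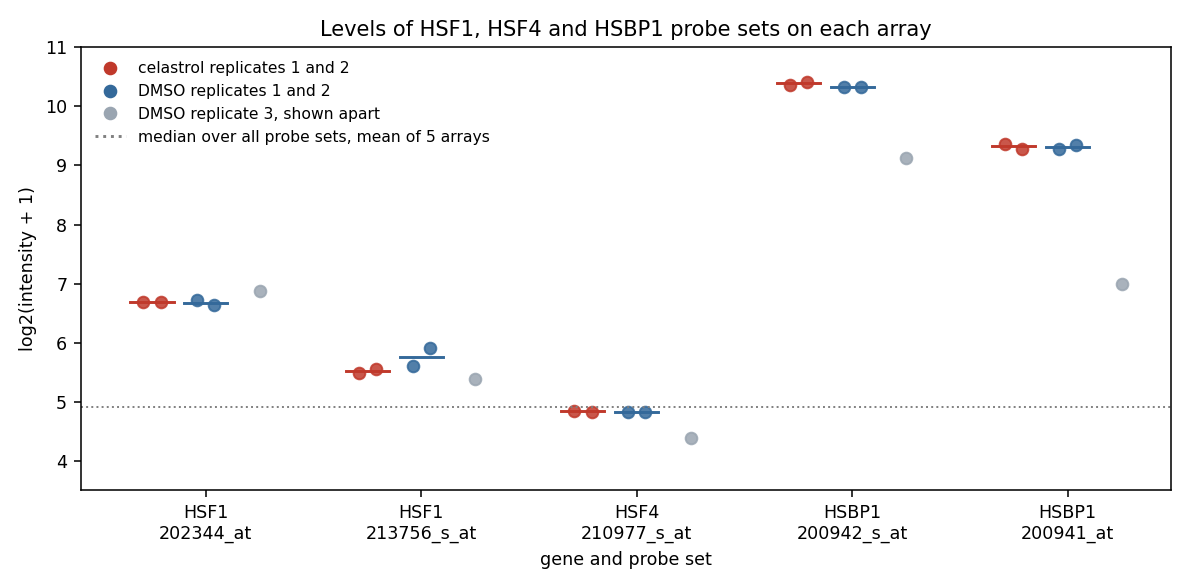
Levels as log2(intensity + 1) of the 5 probe sets on each array, with short lines at the means of the 2 celastrol arrays and of DMSO replicates 1 and 2 (n = 2 each). Celastrol and DMSO points lie within 0.1 of each other's means for all but HSF1 213756_s_at, and DMSO replicate 3 lies well below the others for HSBP1.

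Across the members, 0 of 5 probe sets passed the limma test adjusted over all 22215 probe sets at 0.05, a test that called 2 probe sets in all (0.009%). At an unadjusted limma p under 0.05, 0 of 5 members passed, beside 2932 probe sets of the table (13.2%). The celastrol and DMSO arrays did not overlap for 2 of 5 members, beside 32.1% of all probe sets. Of these 2, 1 was higher and 1 lower, beside 14.5% and 17.6%. The median change of the 5 was 0.00867 and their median absolute change 0.0119, beside 0 and 0.0704 over all probe sets. In absolute size the change of 213756_s_at exceeded that of 89.6% of probe sets, and that of 200942_s_at exceeded 42.8%. The other 3 exceeded between 9.59% and 12.3%. With 2 arrays against 2, an exact two-sided permutation test of a single probe set cannot go below 0.333, so it was not used to call a change. A missed threshold does not show equal levels, and the intervals above give what the fit leaves possible. Identical values within a group, as for HSF1 202344_at, HSF4 and HSBP1 200942_s_at, narrow them.

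**Figure D2:**
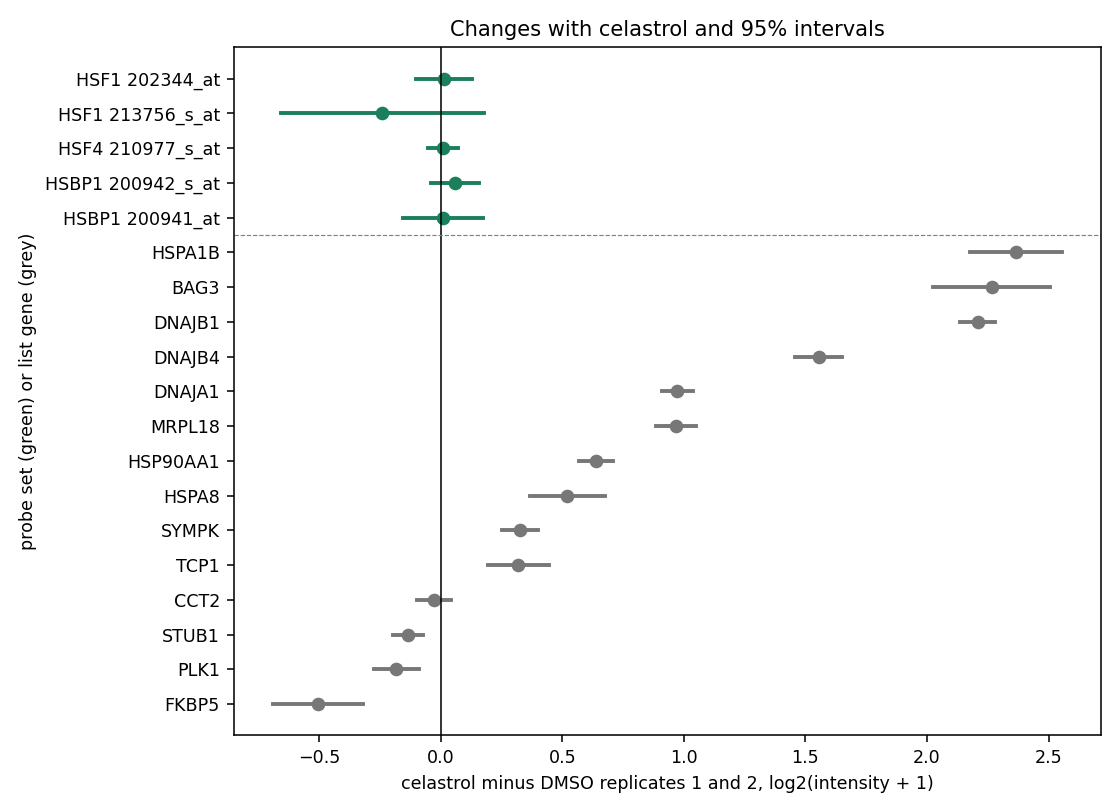
Changes with celastrol against DMSO replicates 1 and 2 (points) and their 95% limma intervals (lines), for the 5 member probe sets in green and for the genes named from the target and regulator lists in grey. The intervals of all 5 members span 0, while DNAJB1 stands at 2.21.

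On the same arrays most known target genes of the heat shock factors had levels above those with DMSO, although 1 passed the adjusted test. Of 36 listed targets 32 were measured, each by its brightest probe set, and 31 had a change above 0, with a median of 0.68 against 0 over all 12165 genes. One target, DNAJB1, passed the adjusted threshold, beside 0.0164% of genes. At an unadjusted limma p under 0.05, 26 targets were higher and 0 lower, beside 6.3% and 8.8% of genes. These lists were assembled with earlier results of these data known, so the counts describe and do not test the list.

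DNAJB1, an HSP40 cochaperone that also binds HSF1, had levels of 11.25 and 11.23 with celastrol, against 9.02 and 9.04 with DMSO. It rose 4.62-fold, by 2.21 (SE 0.0224, limma adjusted p = 0.0421). HSPA1B, an inducible HSP70, had levels of 11.39 and 11.29 with celastrol, against 8.93 and 9.02 with DMSO, but shares near-identical sequence with HSPA1A. The change of HSPA1B was 2.37 (SE 0.0587, limma adjusted p = 0.0622). The brightest probe set naming HSPA1A alone, 200799_at, was dim. It had levels of 4.16 and 4.18 with celastrol, against 4.08 and 4.19 with DMSO, a change of 0.0321. BAG3, an HSP70 cochaperone, had a change of 2.27, DNAJB4, another HSP40, 1.56, DNAJA1, also an HSP40, 0.97, and MRPL18, a mitochondrial ribosomal protein gene, 0.97. For these 4 the limma adjusted p was also 0.0622. The single target below 0 was CCT2, a subunit of the chaperonin TRiC, at -0.0268 (limma adjusted p = 0.622). How many targets passed depended on the setting, with 0 to 14 called under the alternatives, while 0 of 5 members passed under each of them.

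Genes whose products bind or modify heat shock factors were counted apart from the targets, because some are in both lists. Of 46 listed, 39 were measured, and 8 of these are also in the target list. Chaperones that hold HSF1 inactive were among them. HSP90AA1, an inducible HSP90, had levels of 13.14 and 13.11 with celastrol, against 12.50 and 12.48 with DMSO, a change of 0.64 (SE 0.0220, limma adjusted p = 0.0622). HSPA8, the constitutive HSP70, had a change of 0.52 and TCP1, a TRiC subunit, 0.32, with limma adjusted p of 0.111 and 0.145. The only called member of the list was DNAJB1, given above.

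The 31 regulators that are not targets had a median change of -0.0459, and 0 passed the adjusted limma test. At an unadjusted p under 0.05, 2 were higher and 8 lower, beside 6.3% and 8.8% of genes. SYMPK, which encodes symplekin, a scaffold of the polyadenylation machinery that binds HSF1, had a change of 0.33 (limma adjusted p = 0.0949). On the lower side the smallest p belonged to FKBP5, an HSP90 cochaperone that is also androgen-induced, at -0.51, STUB1, the chaperone-linked ubiquitin ligase CHIP, at -0.13, and PLK1, a kinase that phosphorylates HSF1, at -0.18. Their limma adjusted p were 0.138, 0.167 and 0.179. HSF2BP, which encodes a binding partner of HSF2, was dim, with levels of 4.45 and 4.30 with celastrol, against 4.45 and 4.60 with DMSO (change -0.15, limma adjusted p = 0.622). The reference genes GAPDH and ACTB had changes of 0.0099 and -0.10 (limma adjusted p = 0.799 and 0.473). KLK3, which encodes prostate-specific antigen, had a change of -0.65 (limma adjusted p = 0.174).

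**Figure D3:**
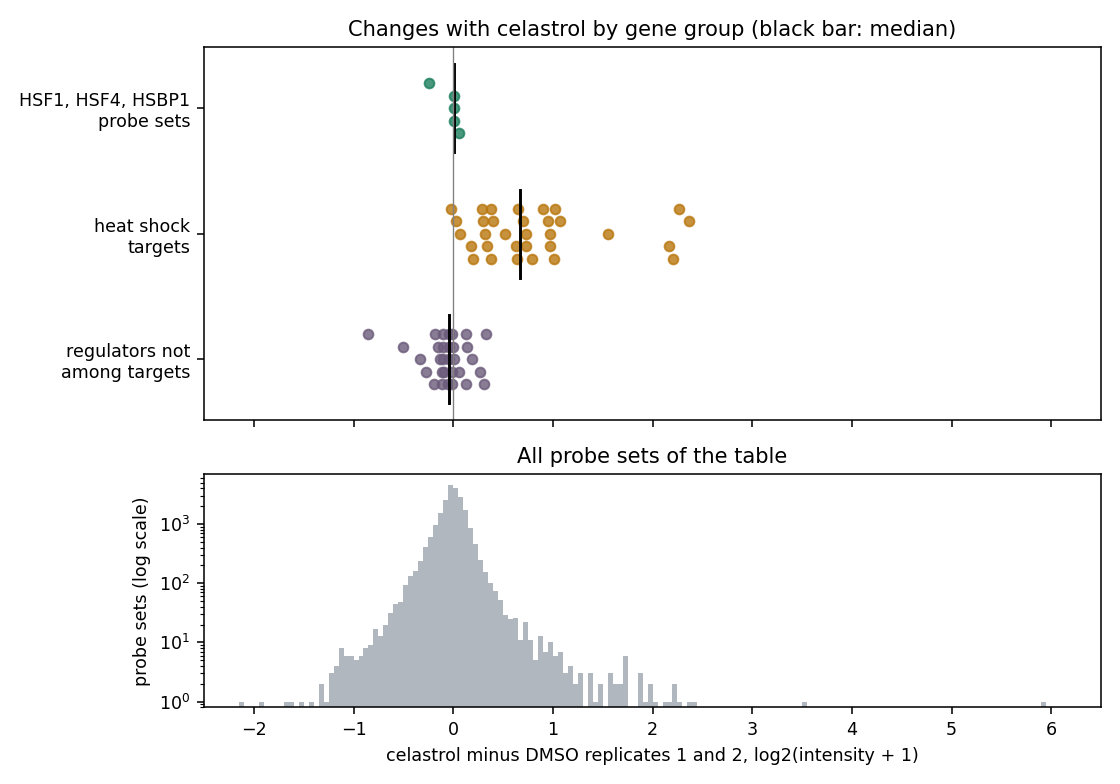
Upper panel: change with celastrol against DMSO replicates 1 and 2 for the 5 members, the 32 measured targets and the 31 regulators that are not targets, each dot a probe set and each black bar a median (0.00867, 0.68 and -0.0459). Lower panel: the same change for all 22215 probe sets, counted on a log axis.

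Heat shock elements in promoter sequence were then compared between HSF4, HSBP1 and the targets, because most targets had changes above 0 and 4 of 5 members had absolute changes under 0.1. The windows were RefSeq promoters on build GRCh38.p14, from 250 bases before to 50 after each start. GAANNTTC and TTCNNGAA, each of which reads the same on both strands, were searched as elements of 2 units, and GAANNTTCNNGAA and TTCNNGAANNTTC, reverse complements of each other that contain the shorter motifs, as elements of 3 units. Of 30 measured targets with a window, 21 held an element of 2 units and 9 one of 3 units. Over all 27305 genes with a window the shares were 16.2% and 0.608%. The list holds known targets of factors that bind such elements, so this excess describes the list and is not a result of these arrays. Of the 3 measured members, HSF4 and HSBP1 had windows. Neither these nor the windows of HSF2, whose expression was not analysed here, held either kind. This says only that these letters are not in these windows. HSF1 had no window in the table used and was not compared. Over the single windows, 13.5% of 35116 held an element of 2 units. The 250 bases before the start are shown for HSBP1, the brightest member, at chr16:83807728-83807977 on the plus strand, beside DNAJB1, the called target, at chr19:14518398-14518647 on the minus strand, and CHORDC1, the target with the most elements, at chr11:90223050-90223299 on the minus strand. Elements are in capitals and the rest in lower case.
HSBP1: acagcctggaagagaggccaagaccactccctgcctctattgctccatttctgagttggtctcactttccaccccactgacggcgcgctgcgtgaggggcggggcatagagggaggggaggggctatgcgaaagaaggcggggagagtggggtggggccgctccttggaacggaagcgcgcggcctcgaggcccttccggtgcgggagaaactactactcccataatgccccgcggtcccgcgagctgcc
DNAJB1: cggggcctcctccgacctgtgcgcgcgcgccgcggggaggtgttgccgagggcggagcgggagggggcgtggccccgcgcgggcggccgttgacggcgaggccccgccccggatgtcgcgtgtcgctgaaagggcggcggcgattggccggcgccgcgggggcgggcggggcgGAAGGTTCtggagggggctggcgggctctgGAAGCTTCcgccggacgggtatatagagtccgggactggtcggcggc
CHORDC1: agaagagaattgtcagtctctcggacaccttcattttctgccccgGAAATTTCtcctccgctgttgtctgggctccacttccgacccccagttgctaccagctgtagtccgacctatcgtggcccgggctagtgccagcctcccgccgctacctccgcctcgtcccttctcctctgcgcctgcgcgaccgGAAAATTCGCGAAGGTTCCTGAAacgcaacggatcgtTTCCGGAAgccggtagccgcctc

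The DNAJB1 window shown is 1 of 3 for this gene, picked because it holds elements before the start. The gene's other windows held none there. The window shown holds 2 elements of 2 units, the nearer starting 47 bases before the start. The CHORDC1 window holds 6 such elements, most of them overlapping in the long capital run. CHORDC1, which encodes an HSP90 cochaperone, had a change of 1.01 (limma adjusted p = 0.108). Whether the changes of targets go with elements in their windows was not tested. BAG3 and HSPH1, an HSP110 chaperone gene, had changes of 2.27 and 2.16 (limma adjusted p = 0.0622 and 0.0675). Their windows held 0 exact matches to these motifs. CCT2, at -0.0268, had 1. Elements with other letters or outside the windows were not searched.

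On DMSO replicate 3 the members did not move as one. HSBP1 was much lower there, with a level of 6.99 for 200941_at, against 9.28 and 9.35 on DMSO replicates 1 and 2. For 200942_s_at it was 9.13 on DMSO replicate 3, against 10.33 on both others. These are shifts of -2.32 and -1.20 from the mean of the other DMSO arrays, so both HSBP1 probe sets were among the 10.1% of all probe sets at least 2-fold lower on that array, although by unequal amounts. HSF4 was lower by a smaller margin, at 4.39 against 4.83 on both others. The HSF1 probe sets went opposite ways, at 6.87 against 6.71 and 6.64 for 202344_at, and at 5.38 against 5.61 and 5.91 for 213756_s_at. The part of the luminal and leukocyte marker differences of this array in these shifts was not tested, and with 1 array there is no test of them.

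When DMSO replicate 3 was included in the fit, the changes of the HSBP1 probe sets were 0.78 (SE 0.878) for 200941_at and 0.46 (SE 0.456) for 200942_s_at, both with a limma adjusted p of 0.876. HSF4 then stood at 0.16, and HSF1 at -0.0535 and -0.11. Without that array the HSBP1 changes were 0.00867 and 0.0575, as given above.

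**Figure D4:**
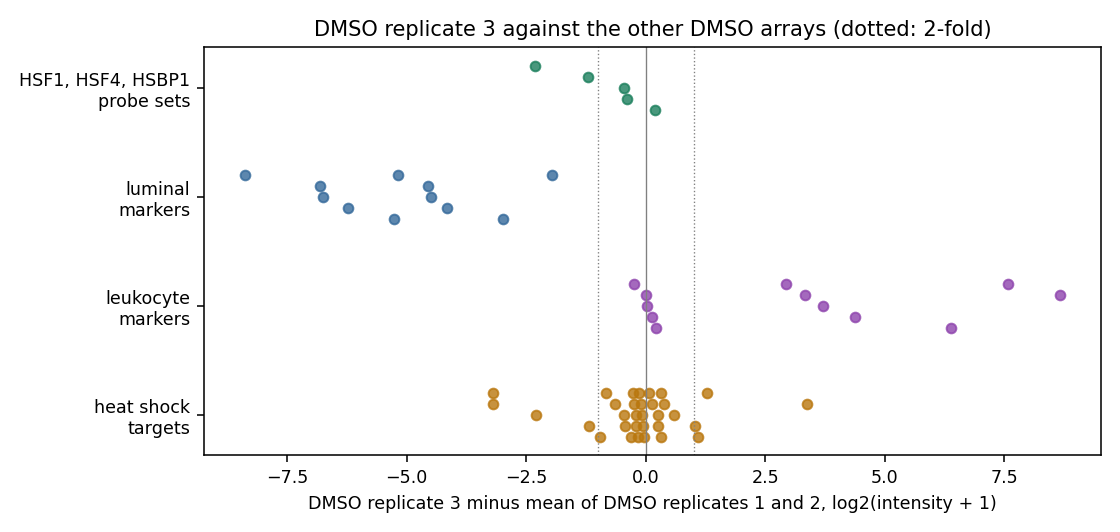
Level on DMSO replicate 3 minus the mean of DMSO replicates 1 and 2, on the log2 scale, for the members, the luminal and leukocyte markers and the heat shock targets, each dot a probe set, with dotted lines at 2-fold. HSBP1 200941_at is the leftmost member at -2.32, and all 11 luminal markers lie left of the dotted line.

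Genes with profiles most like those of the members over the 4 arrays were found by the root mean square difference of log2 levels centred on each gene's mean, among 8090 other genes kept by a filter on dim probe sets. For HSF1 202344_at the nearest were LBHD1, NSD3 and SPAG7, at 0.00466 to 0.00556. For HSF4 they were PCID2, CYP2J2 and ZNF623, at 0.000195 to 0.000314, and for HSBP1 200942_s_at they were ZNF862, SH3D21 and PTP4A1, at 0.00103 to 0.00672. These likenesses describe flat profiles, since between 1654 and 2351 genes lay within 0.05 of each of these members.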

How the data were processed

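The authors deposited linear intensities, 1 for each probe set on each array. Per the submitters' processing notes they came from RMA, the version of which is not given in the sources used here. The arrays' distributions were close but not identical, with median levels from 4.90 to 4.93, and identical values between arrays were frequent. All 5 columns were used. The platform annotation gives 1 gene for 19724 of 22215 probe sets and several for 568, and 1923 are unnamed here. Values were taken as log2(intensity + 1) with no further normalization. The test was limma (version 3.58.1, R 4.3.3), lmFit and eBayes, two-sided, on celastrol and DMSO replicates 1 and 2, adjusted by Benjamini and Hochberg's method over the whole table, at a threshold of 0.05. It was tested on simulated data with independent normal noise and no tied values, so that run does not bear on the ties here. A list gene is its probe set with the highest mean among those naming it alone. Every member probe set is named; from each list the 6 higher and 3 lower genes of smallest p, with DNAJB1, HSPA1B, HSP90AA1, HSPA8, TCP1, HSF2BP, KLK3, ACTB and GAPDH, and for each member the 3 nearest profiles. BAG3, HSPH1, CHORDC1 and CCT2 were singled out in the promoter account after their values were seen. HSPA1A is given for its likeness in sequence to HSPA1B. Members and lists were chosen with earlier results of these data known. P-values measure the spread between these arrays only. The main test did not pair arrays by replicate number, and the titles do not say whether a number marks a shared culture. The differences of replicates 1 and 2 correlated between groups at r = -0.0197 over probe sets. Alternatives were all 5 arrays, a filter leaving out the dimmest 40%, quantile and median normalization, log2(intensity + 16), trend and robust variance, a replicate block and leaving out each array. No protein sequence was used.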

Additional observations from a re-analysis of the deposited data

Results flagged for a closer look

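HSF1 202344_at stood at 6.87 on DMSO replicate 3, above the other 4 arrays (6.64 to 6.71), in an array outside the comparison. DMSO replicate 3 exceeded all 4 others for 37% of all probe sets, and the other HSF1 probe set was lower there than on them.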

How the results depend on the processing

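Across 11 alternatives, 0 of 5 members passed the adjusted limma test in each, with a lowest adjusted p of 0.141, and 51 of 55 member values kept their direction or, in 1 case (HSF4 without celastrol replicate 1), came to 0. The other 4 turned. HSF1 202344_at came to -0.0535 on all 5 arrays and ranged from -0.0259 to 0.0496 with 1 of the 4 arrays left out, and HSBP1 200941_at from -0.0368 to 0.0541. HSF1 213756_s_at stayed negative, from -0.39 to -0.0876. Counts over the whole table moved with the setting. Beside 2 probe sets called, the dim filter gave 121, quantile normalization 197, median centring 139, log2(intensity + 16) 43, and all 5 arrays and the replicate block 0. Of the calls, 1 was higher and 1 lower, against 121 and 76 after quantile normalization and 86 and 53 after median centring. Called targets, beside 1, were 12, 14, 13, 7, 0 and 0 in that order, and called regulators, beside 1, were 3, 3, 3, 3, 0 and 0. Leaving out any 1 of the 4 arrays gave 0 for each of these counts, with 1 residual degree of freedom and the lone array of a group assumed to vary like the other group. The replicate block left the changes of the members as they were and called 0 of them. The cause of the other moves was not tested. Intervals rest on few arrays and on tied values, which narrow them.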
